A study of Mus musculus with 2 samples.

Results

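The interleukin 1 and 33 system was followed across cells of the perivascular adipose tissue that surrounds the mouse aorta, through 7 of the 31053 genes counted in both libraries. The genes were taken by symbol: the ligand genes Il1a, Il1b and Il33, the antagonist gene Il1rn, and the receptor genes Il1r1, Il1rap and Il1rl1. One library came from young and 1 from old wild-type (WT) mice, and no other genotype or treatment was compared. The cells were primary perivascular stromal cells freed from the dissected fat with collagenase, and the 10x Genomics single-cell 3′ kit, version 2, counted transcripts by unique molecular identifiers (UMIs). The sources used here give neither the ages nor the sex nor the number of the mice, and do not say whether the cells were cultured before capture.

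IL-1α and IL-1β, the products of Il1a and Il1b, bind the receptor IL-1R1, which signals once the accessory chain encoded by Il1rap joins it. The product of Il1rn, the IL-1 receptor antagonist, occupies the same receptor without signalling. IL-33 is a nuclear cytokine of stromal and barrier cells that is set free by damage. It binds ST2, the product of Il1rl1, which uses the same accessory chain and is known from group 2 innate lymphoid cells, mast cells and regulatory T cells. In connective tissue, macrophages are the classical source of IL-1β and fibroblasts respond to it.

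In the GRCm38 annotation (GENCODE vM21), Il1a (chr2:129299610-129309972, reverse strand) and Il1b (chr2:129364570-129371139, reverse strand) were neighbours 54597 bases apart, and Il1rn lay on the same chromosome (chr2:24336853-24351494, forward strand). Il1r1 (chr1:40225080-40317257, forward strand) and Il1rl1 (chr1:40429570-40465415, forward strand) lay 112312 bases apart, Il1rap at chr16:26581704-26730117 (forward strand) and Il33 at chr19:29925114-29960718 (forward strand). Il1r1 overlapped Gm38070 on the same strand, and how reads of the overlap were counted was not checked. Antisense genes overlapped Il1a (Gm14023), Il1b (Il1bos) and Il1rap (Gm20319), and whether counting used the strand is not stated in the sources at hand. Counts near 3′ ends do not tell the soluble from the membrane form of ST2, the secreted from the intracellular forms of the antagonist, or one start site from another.

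Promoter sequence is shown for 4 of the 7 genes: Il1a and Il1rn, whose windows held letters of an inflammatory factor, and Il33 and Il1rl1, whose levels were the most different between the libraries among genes counted well in both. RefSeq (GRCm38.p6) gave 12 start-site windows for 7 of 7 genes, each from 250 bases before to 50 bases after the start, and the 250 bases before the start are printed 5′ to 3′. Capitals mark matches on either strand to the AP-1 letters TGANTCA, the NF-kB letters (GGG, any 2 bases, then TTTCC) or the C/EBP letters TTGCNNAAT. The lines hold chr2:129309973-129310222 (reverse strand), chr2:24345121-24345370 (forward strand, the most downstream of 3 windows), chr19:29924863-29925112 (forward strand, the upstream of 2) and chr1:40439379-40439628 (forward strand, the downstream of 2).
Il1a: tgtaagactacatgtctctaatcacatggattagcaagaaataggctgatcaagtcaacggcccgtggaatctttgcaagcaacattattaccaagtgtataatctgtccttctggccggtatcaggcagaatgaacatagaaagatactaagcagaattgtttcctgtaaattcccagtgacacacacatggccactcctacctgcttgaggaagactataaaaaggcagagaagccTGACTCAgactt
Il1rn: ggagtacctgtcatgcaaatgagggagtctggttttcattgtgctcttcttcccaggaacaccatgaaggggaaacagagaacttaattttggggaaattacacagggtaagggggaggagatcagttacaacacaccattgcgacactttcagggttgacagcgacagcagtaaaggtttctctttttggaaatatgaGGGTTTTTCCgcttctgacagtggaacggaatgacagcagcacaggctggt
Il33: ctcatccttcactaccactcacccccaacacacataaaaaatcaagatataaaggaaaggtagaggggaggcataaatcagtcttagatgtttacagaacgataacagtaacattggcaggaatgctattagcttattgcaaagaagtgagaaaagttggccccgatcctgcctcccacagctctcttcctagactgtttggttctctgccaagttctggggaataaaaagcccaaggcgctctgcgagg
Il1rl1: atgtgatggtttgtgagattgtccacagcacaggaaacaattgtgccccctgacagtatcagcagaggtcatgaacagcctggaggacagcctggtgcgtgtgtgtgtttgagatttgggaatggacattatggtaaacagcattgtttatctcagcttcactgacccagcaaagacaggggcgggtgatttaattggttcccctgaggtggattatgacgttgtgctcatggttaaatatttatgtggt

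The Il1a window held the AP-1 letters at bases 239 to 245, counted from its 5′ end, and the Il1rn window the NF-kB letters at bases 200 to 209. A further Il1rn window shared that NF-kB position, the third held AP-1 letters at bases 110 to 116, and 1 Il1r1 window held C/EBP letters at bases 118 to 126. The windows of Il1b, Il1rap, Il1rl1 and Il33 held none of the letters searched, which says only that these letters are not there. Among all 32851 promoter windows of 300 bases, 1.63% held the NF-kB letters, 7.81% the AP-1 letters and 2.40% the C/EBP letters. A match is a run of letters and not a shown binding site.

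After filtering, 11453 young and 12207 old cells remained, with medians of 8916 and 9230 UMIs per cell. Among all barcodes before filtering, 275 occurred in both libraries. A cell was placed in a class when it held UMIs of at least 4 marker genes of that class, none of them among the 7 genes. Mesenchymal cells were 10467 of the young and 10404 of the old cells and held a median of 7 and 8 of 10 markers such as Col1a1 and Pdgfra. Macrophages were 1 young and 100 old cells, and the old ones held a median of 9 of 10 markers. Blood endothelial cells numbered 31 and 1075, mesothelial cells 298 and 57, Schwann cells 62 and 71, and adipocytes 7 and 101. Neutrophil, T cell, B cell, group 2 innate lymphoid and mast cell gates held 0 cells in either library, which allows up to 0.0262% of young and 0.0246% of old cells. Old and young levels were compared only in mesenchymal, mesothelial and Schwann cells, which had at least 50 cells in both. Levels are UMIs of a gene scaled to the UMI total of the class (CPM). All intervals are 95% and cover counting error only; with 1 library per age there is no replicate check and no p-value, and whatever else differed between the libraries cannot be told apart from age.

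Il1b was counted mainly in macrophages of the old library. Its 655 UMIs in 100 cells gave 950 CPM (879 to 1026), and 80.8% of all 811 Il1b UMIs of the old library were in this class, which was 0.819% of its cells. In 62.0% of macrophages at least 1 Il1b UMI was found (51.7 to 71.5), and in 46.5% (36.4 to 56.8) after each cell had been thinned to 2000 UMIs. The level was uneven among these cells: 50 held at least 2 UMIs, 19 held at least 10, and the highest held 90. Mesenchymal cells of the old library had 95 UMIs (0.866 CPM) and endothelial cells 7 (0.565 CPM), while mesothelial, Schwann and adipocyte classes had 0, against limits of 5.37, 8.13 and 4.53 CPM that a count of 0 allows. The 11453 young cells held 0 Il1b UMIs, and 1 macrophage is too few to set a young level.

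The Il1b of old mesenchymal cells came as single molecules. All 95 UMIs lay in 95 different cells, at 0.0912% of the macrophage level. The 9 macrophage markers other than Csf1r lay between 0.0528% and 0.113% of their own macrophage levels in the same mesenchymal cells, with a median of 0.0817%. In young mesenchymal cells 0 of 10467 held an Il1b UMI, which allows up to 0.0287% of cells, against 0.913% of old ones (0.213% after thinning). With the young count of 0 set to the floor of 3 UMIs over the class, the old level was at least 30.5-fold higher (log2 4.93), or at least 4.61 on the log2 scale once the counting error of the 95 old UMIs was included. The summed level of those 9 markers moved the same way, 0.984 CPM in young and 18.6 CPM in old mesenchymal cells, with C1qa and Adgre1 at 0 in the young library. Mesenchymal cells without any UMI of these markers, 10369 young and 8622 old, held 0 and 77 Il1b UMIs (0.878 CPM in the old cells). A single stray molecule need not share a cell with a marker UMI, so this selection does not test where the Il1b UMIs came from.

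**Figure D1:**
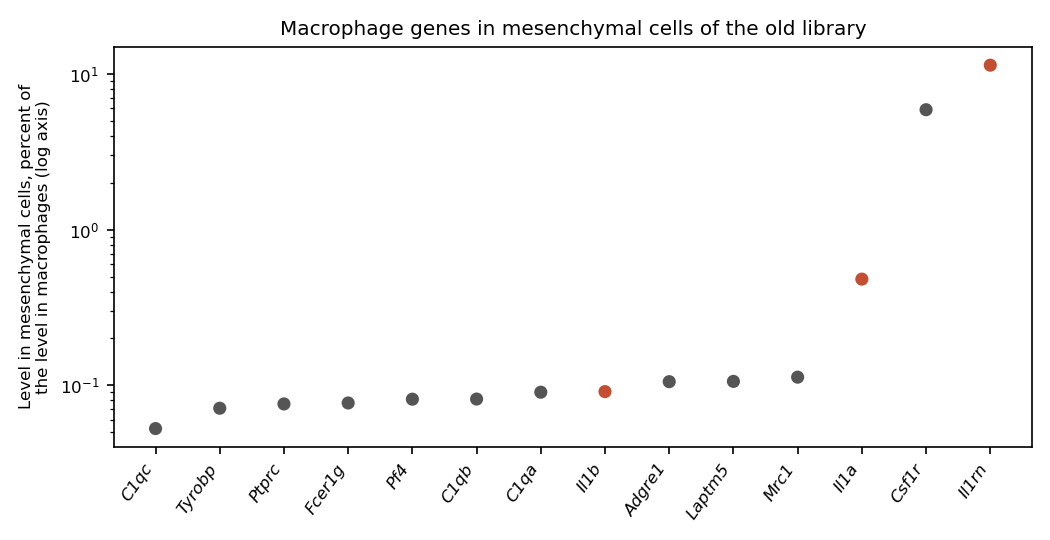
Level in mesenchymal cells as a percentage of the level in macrophages, old library, for Il1a, Il1b and Il1rn (red), the macrophage gate markers and Ptprc (grey), on a log axis. Il1b, at 0.0912%, lies among the macrophage markers, Il1a above them at 0.481%, and Csf1r and Il1rn furthest above at 5.89% and 11.4%.

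Il1a showed a similar division by class at a lower level. Old macrophages held 81 UMIs (117 CPM, 93.3 to 146), found in 32.0% of cells (13.1% thinned), and mesenchymal cells 62 UMIs (0.565 CPM, 0.433 to 0.725). The mesenchymal level was 0.481% of the macrophage level, above the highest of the 9 markers. One mesenchymal cell held 12 of the 62 UMIs; it had 21338 UMIs in all, held both stress genes Atf3 and Ddit3, and had 0 UMIs of the 9 macrophage markers. Without it the mesenchymal level was 0.388% of the macrophage level. Young mesenchymal cells had 3 UMIs (0.0284 CPM) in 3 cells, so the ratio of old to young was 19.9-fold with a wide interval (log2 4.32, 2.70 to 6.63; 4.01 without that cell). Young cells of the other classes had 0 Il1a UMIs.

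The ligand and the antagonist were found in the same macrophages. Of the 62 cells with Il1b, 50 also held Il1rn and 22 held Il1a, and of the 32 cells with Il1a, 29 held Il1rn. The share with Il1rn was 80.6% among cells with Il1b and 84.2% among the 38 without it. The levels in this class depended on the gate and on doublet removal. With 3 markers required, 125 old cells passed and stood at 574 CPM for Il1b, 72.1 for Il1a and 290 for Il1rn, and with 5 markers required 99 cells passed and stood at 916, 119 and 471 CPM.

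Il1rn was the antagonist of macrophages by level and of mesenchymal cells by number. Old macrophages stood at 466 CPM (416 to 519), and 82.0% of them held a UMI (58.6% thinned). That was 8.78-fold the old mesenchymal level of 53.0 CPM (51.6 to 54.4), yet mesenchymal cells held 5813 of the library's 6331 Il1rn UMIs, or 91.8%. Old adipocytes followed at 37.7 CPM (24.4 to 55.7), whose interval met that of mesenchymal cells, then mesothelial cells at 16.1, endothelial cells at 8.48 and Schwann cells at 2.71 CPM, each overlapping the next in its interval. The mesenchymal level was 11.4% of the macrophage level, against a median of 0.0817% for the 9 macrophage markers. In young mesenchymal cells Il1rn was at 41.2 CPM (40.0 to 42.4), 6.86-fold above young Schwann cells.

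Mesenchymal Il1rn was carried by part of the cells. A UMI was seen in 14.2% of young and 20.7% of old mesenchymal cells, and in 6.33% and 8.55% after thinning, which left out 115 young and 79 old cells. Beside this, 1.88% of old endothelial and 0 of 70 old Schwann cells held one after thinning. The richest 1% of mesenchymal cells held 31.5% of the young and 23.6% of the old Il1rn UMIs, with up to 28 and 27 UMIs in a cell. The ratio of old to young was 1.29-fold (log2 0.36, 0.31 to 0.42).

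**Figure D2:**
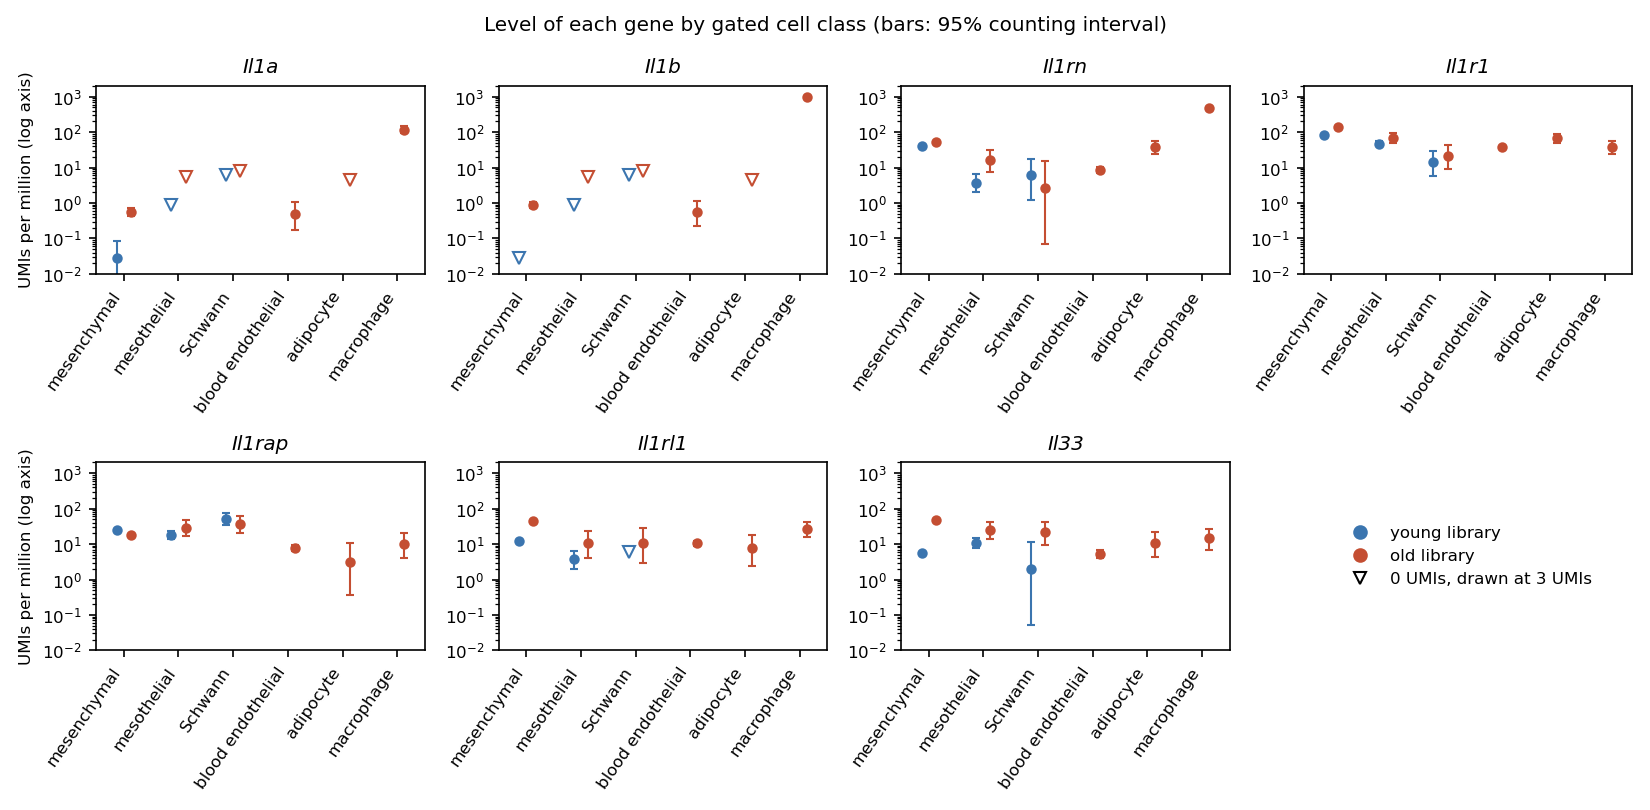
Level of each of the 7 genes in each gated class, in CPM on a log axis; blue points are the young and red points the old library, bars are 95% counting intervals, and open triangles mark classes with 0 UMIs, drawn at 3 UMIs. Il1a, Il1b and Il1rn are highest in old macrophages (117, 950 and 466 CPM), Il1r1, Il1rl1 and Il33 in old mesenchymal cells (142, 43.6 and 48.6 CPM), and Il1rap in Schwann cells (52.1 CPM young, 37.9 old).

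Il33 was a mesenchymal ligand in the old library. Old mesenchymal cells stood at 48.6 CPM (47.3 to 49.9) and held 97.8% of the 5454 Il33 UMIs. Mesothelial cells were at 25.1, Schwann cells at 21.7, macrophages at 14.5, adipocytes at 10.6 and endothelial cells at 5.25 CPM, and the intervals of neighbours in this order after the first step overlapped. In the young library mesothelial cells were highest at 10.7 CPM (7.54 to 14.8), 1.90-fold above mesenchymal cells at 5.65 CPM (5.20 to 6.12), and 1 UMI was found in Schwann cells. Mesenchymal genes were present in the other classes too: the 10 mesenchymal markers had a median of 13.4% of their mesenchymal level in old endothelial cells, 26.7% in macrophages, 17.7% in Schwann cells and 43.8% in mesothelial cells, and Il33 in endothelial cells was at 10.8% of its mesenchymal level. Their part in the Il33 values was not tested.

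Between the ages, mesenchymal Il33 had 597 young and 5332 old UMIs. The old level was 8.61-fold higher (log2 3.11, 2.98 to 3.23), higher than the ratio of 98.4% of the genes tested. Cells with a UMI were 3.66% of young and 18.5% of old mesenchymal cells (1.02% and 7.38% thinned), against 1.22% of thinned old endothelial cells, which had a median of 10719 UMIs before thinning against 9379 in old mesenchymal cells. The highest count in a cell was 11 UMIs among young and 47 among old cells, and 84 old cells held at least 10. In cells without UMIs of the 9 macrophage markers the log2 ratio was 3.12.

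The signalling receptor gene Il1r1 was found in many mesenchymal cells. It stood at 84.7 CPM (82.9 to 86.4) in young and 142 CPM (140 to 144) in old mesenchymal cells, which held 97.4% and 96.1% of its UMIs. A UMI was seen in 49.0% and 69.2% of cells (15.9% and 26.1% thinned), against 5.71% of thinned old Schwann cells. The old level was 1.68-fold higher (log2 0.75, 0.71 to 0.79). Old mesothelial cells (68.0 CPM) and adipocytes (67.9 CPM) did not differ beyond their intervals, nor did macrophages (37.7 CPM) and endothelial cells (37.1 CPM). Il1r1 was at 26.5% of its mesenchymal level in macrophages and 26.1% in endothelial cells, where mesenchymal markers had medians of 26.7% and 13.4%. With collagen-rich cells left out it stood at 22.3 and 32.3 CPM. The part of mesenchymal RNA in these values was not tested. The richest 1% of mesenchymal cells held 7.32% of the young and 5.25% of the old Il1r1 UMIs, a share that also depends on the level of the gene.

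Il1rap, the accessory chain shared by both receptors, had its highest level in cells of the Schwann gate. These cells held a median of only 4 (young) and 5 (old) of its 10 markers, where 4 were needed. Young Schwann cells stood at 52.1 CPM (34.0 to 76.3, 26 UMIs) and old ones at 37.9 CPM (20.7 to 63.7, 14 UMIs), both 2.07-fold the mesenchymal level of the same library. The old Schwann interval lay above the mesenchymal one of 17.6 to 19.2 CPM and met that of mesothelial cells (28.6 CPM, 16.4 to 46.5). Of the 71 old Schwann cells 61 had a share of collagen UMIs over 25% of the mesenchymal median. The 10 others had Il1rap at 0 CPM, and are too few to set a level without such cells. In mesenchymal cells Il1rap was the gene of the 7 with a lower old level, 25.1 CPM (24.2 to 26.1) in young against 18.4 CPM in old cells, 1.37-fold lower (log2 -0.45, -0.54 to -0.37). Cells with a UMI were 19.1% and 16.4% (4.42% and 3.35% thinned). Both Il1r1 and Il1rap were seen in 1077 young and 1250 old mesenchymal cells; of cells with Il1r1, 21.0% of young and 17.4% of old ones held Il1rap, against 17.3% and 14.2% of cells without Il1r1, and cells with Il1r1 were not matched for depth.

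The IL-33 receptor gene Il1rl1 was found in mesenchymal cells, with no cell in the innate lymphoid or mast cell gates. It had 1294 UMIs (12.2 CPM, 11.6 to 12.9) in young and 4781 (43.6 CPM, 42.4 to 44.8) in old mesenchymal cells, 3.56-fold higher (log2 1.83, 1.74 to 1.92). Summed markers of group 2 innate lymphoid cells were at 0.729 and 0.474 CPM and those of mast cells at 0.823 and 1.39 CPM in the same cells. Il1rl1 was found in 5.10% of young and 15.5% of old mesenchymal cells (1.66% and 5.14% thinned), against 0.847% of thinned old endothelial cells. Few cells held much of it: the richest 1% of mesenchymal cells held 57.3% of young and 39.1% of old UMIs, and single cells reached 39 and 72. Old macrophages followed at 26.1 CPM (18 UMIs in 7 cells), which became 6.08 CPM in the 80 macrophages whose share of collagen UMIs was at most 25% of the mesenchymal median, and in endothelial cells 1 cell held 38 of 129 UMIs.

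The ratio of old to young Il1rl1 was larger with dividing cells left out. Cells that passed the gate of cell cycle genes, 2650 young and 2405 old, stood at 21.7 CPM in the young library against 7.65 in its other mesenchymal cells (log2 1.504, 1.34 to 1.67). In the old library the same comparison gave 38.2 and 46.0 CPM (-0.27, -0.36 to -0.18). Without cycling-gated and pericyte-gated cells the ratio of old to young was 6.02-fold (log2 2.59).

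Across the 7 genes in mesenchymal cells, 5 had an old level at least 1.5-fold above the young one and 0 had one as far below it, with a median log2 ratio of 1.83. Of all 15200 genes with at least 20 UMIs there, 19.6% were as much higher and 12.4% as much lower, with a median of 0.13. Il1a and Il1b reached 20 UMIs through the old library alone and could therefore only come out higher; of the 5 others, Il33, Il1rl1 and Il1r1 were higher and Il1rn and Il1rap lay within 1.5-fold. Size factors from the median of gene ratios lowered every log2 ratio by the same amount, a shift of -0.12, and turned none of the 7.

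**Figure D3:**
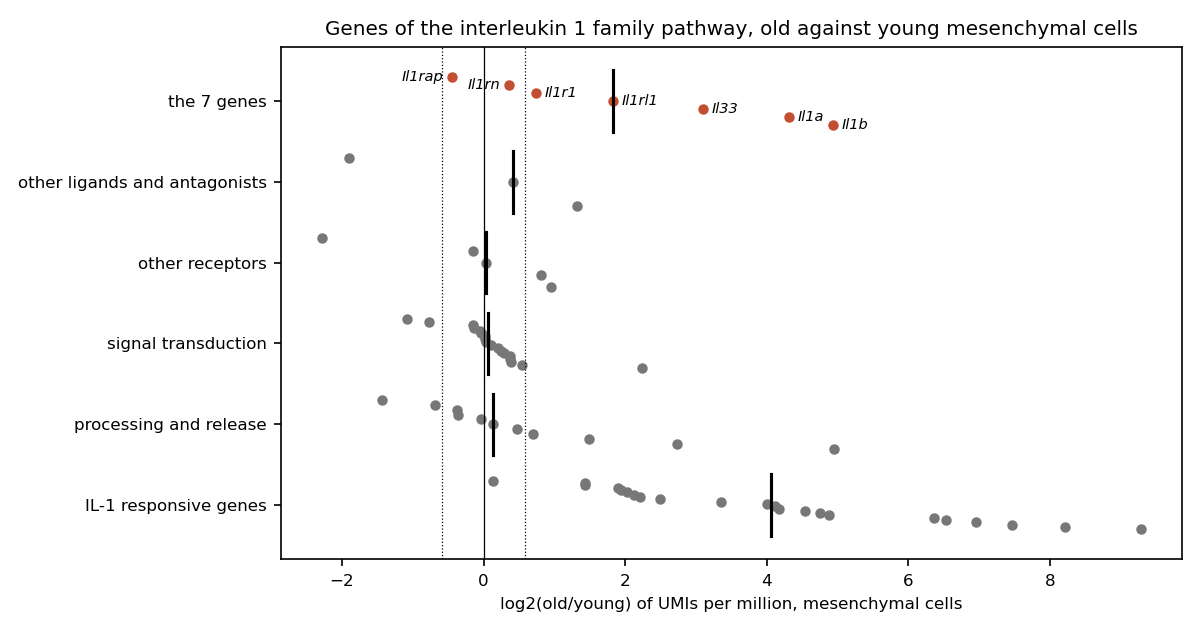
log2 ratio of old to young level in mesenchymal cells for the 7 genes (red, named) and for 5 lists of related genes (grey), each point a gene, with black bars at the medians and dotted lines at 1.5-fold either way; genes with 0 young UMIs are drawn with that count set to 3. The 7 genes run from -0.45 for Il1rap to 4.93 for Il1b, and the IL-1 responsive genes have the median furthest to the right, 4.06.

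In mesothelial cells, 298 young and 57 old, Il1rn (13 and 9 UMIs) had a log2 ratio of 2.10 (0.69 to 3.44) and Il33 (37 and 14 UMIs) of 1.23 (0.22 to 2.15). The intervals of Il1r1, Il1rap and Il1rl1 included 0. Of the 57 old cells 52 had a share of collagen UMIs over 25% of the mesenchymal median, so no ratio could be given without such cells. Mesenchymal markers stood there at the median of 43.8% of their mesenchymal level given above, and their part in these values was not tested. In this class 16.1% of 9280 genes were at least 1.5-fold higher and 16.8% lower. In Schwann cells Il33 had 1 and 8 UMIs (log2 3.44, 0.54 to 8.91), and the intervals of Il1r1, Il1rap and Il1rl1 included 0; 17.4% of 5053 genes were higher and 13.2% lower.

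Within the mesenchymal cells, levels were also compared among marker subsets. Subsets were cells with a UMI of a named marker, set against the other mesenchymal cells of the same library, and the median cell of each subset had more UMIs than the median cell outside it, whose part in the differences was not tested. Il33 was higher in the 2844 old cells with Pi16, a marker of adventitial progenitor fibroblasts, at 71.4 against 39.1 CPM (log2 0.87, 0.79 to 0.95). In the 76 young cells with Pi16 it was 11.9 against 5.59 CPM on 11 UMIs (1.09, 0.08 to 1.94). Il33 was lower in cycling-gated cells of both libraries, 3.04 against 6.91 CPM in the young (-1.18, -1.50 to -0.88) and 22.4 against 60.4 CPM in the old (-1.43, -1.54 to -1.32). The log2 ratio of cycling-gated to other cells was below 0 in both libraries for Il1rn (-0.36 young, -0.40 old), Il1r1 (-0.50 and -0.59) and Il1rap (-0.19 and -0.18) as well. Old cells with Pi16 also had higher Il1r1 (0.20) and Il1rl1 (0.33) and lower Il1rn (-0.27), while young ones had higher Il1r1 (0.48) and lower Il1rl1 (-2.51, -5.56 to -0.66, on 2 UMIs).

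Il1rn was higher in cells with Pparg and Lpl, genes of adipogenic commitment. Its level was 67.4 against 40.3 CPM in the young and 83.3 against 49.9 CPM in the old library, 1.67-fold in each. It was lower in cells with Tcf21, an embryonic mesenchymal transcription factor gene, at 17.1 against 45.5 CPM in the young (log2 -1.41, -1.59 to -1.24) and 26.9 against 53.9 CPM in the old library (-1.002, -1.30 to -0.72). In cells with Cthrc1, a gene of activated fibroblasts, it was lower as well (-0.47 young, -1.01 old). Il1rap went the other way in Tcf21 cells, 37.3 against 22.9 CPM in the young (0.70, 0.57 to 0.83) and 25.1 against 18.1 CPM in the old library (0.47, 0.16 to 0.77).

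Stress genes marked out Il1rl1 and Il1a in the old library. In 538 old cells with both Atf3 and Ddit3, factors of the integrated stress response, Il1rl1 was at 93.1 against 39.6 CPM (log2 1.23, 1.12 to 1.34). These cells had a median of 13850 UMIs against 9216. In the 101 such young cells the interval included 0 (-0.15, -0.94 to 0.53). Of the 62 old mesenchymal Il1a UMIs, 24 lay in these cells, 7.90-fold the level of the others, and 12 of the 24 were those of the single cell named above. Il1rn, Il1r1 and Il33 were lower there (-1.33, -0.59 and -0.80). Young cells with Cxcl1 or Cxcl5 had higher Il33 (0.90) and Il1r1 (0.58) and lower Il1rl1 (-0.91); fewer than 50 old mesenchymal cells lacked both, so no such comparison was made there.

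**Figure D4:**
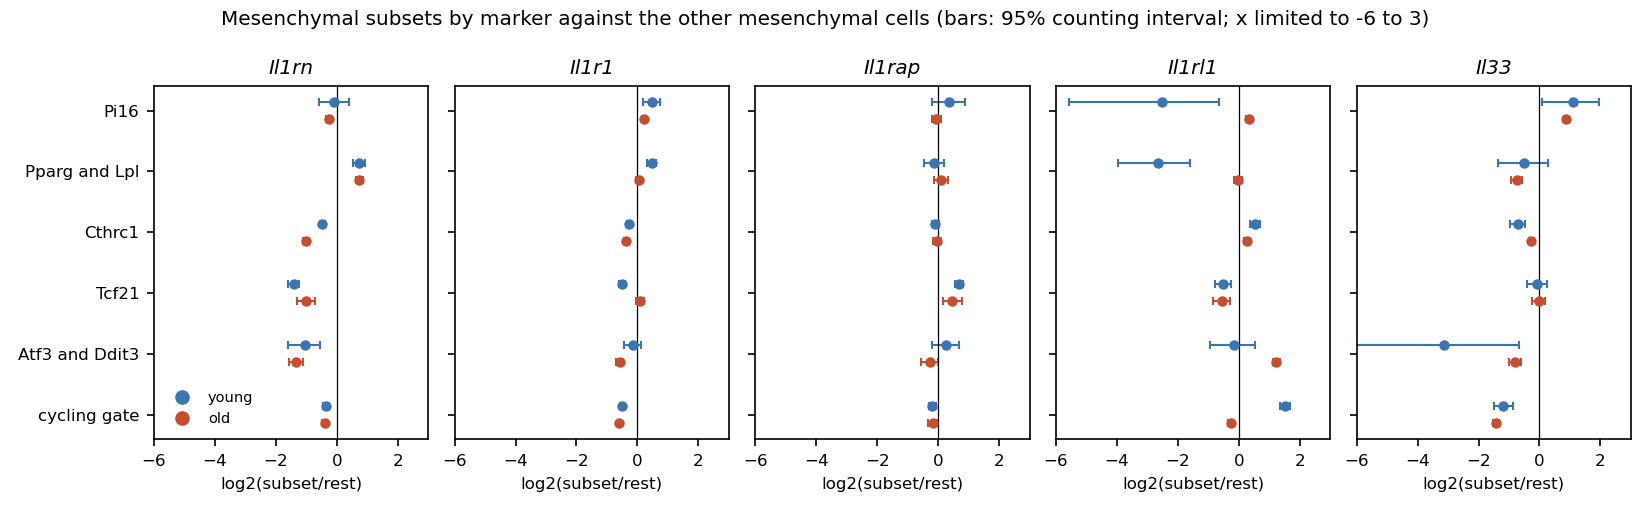
log2 ratio of the level in each marker subset to that in the other mesenchymal cells of the same library for 5 of the genes; blue is young, red is old, bars are 95% counting intervals and the axis runs from -6 to 3. Il33 lies below 0 in cycling-gated cells of both libraries (-1.18 and -1.43), Il1rn above 0 in cells with Pparg and Lpl (0.74 in each), and Il1rl1 on opposite sides of 0 in cycling-gated cells (1.504 young, -0.27 old).

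Few mesenchymal cells were seen with both the IL-33 ligand and its receptor. In the old library 1929 mesenchymal cells held Il33, 1612 held Il1rl1 and 316 held both; Il1rl1 was found in 16.4% of cells with Il33 and 15.3% of cells without it. In the young library 9 of 383 cells with Il33 held Il1rl1, 2.35% against 5.21% of the cells without Il33. Il1r1 was found in 75.5% of old cells with Il33 and 67.8% of those without, and in 64.5% and 48.5% of young cells. Depth per cell moves such shares and was not matched here.

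Genes richest in the holding cells, named after their values were seen, differed by gene and library. Only genes with at least 200 UMIs in the holding cells and 20 in the cells with 0 were ranked. Genes scarcer than that in the holding cells could therefore not lead. The 640 old mesenchymal cells with at least 2 Il1rl1 UMIs were led, by fold over cells with 0, by the chemokine gene Cxcl3 (4.98-fold), Akr1c18 (3.83-fold), the cytokine gene Il11 (3.79-fold) and Areg, the gene of amphiregulin (3.78-fold), while the 199 such young cells were led by Nrn1 (5.28-fold), Cck (4.27-fold) and Cd24a (4.10-fold). The 913 old cells with at least 2 Il33 UMIs were led by the chemokine genes Cxcl13 (7.19-fold) and Ccl5 (4.33-fold). Cells with at least 2 Il1rn UMIs were led by the haptoglobin gene Hp in young (4.24-fold) and the kininogen gene Kng1 in old cells (5.31-fold), and Ccl9, a chemokine gene, was among the first 5 in both. For Il1rap, young cells were led by Tbx20, a cardiac-type transcription factor gene (7.36-fold). The holding cells of Il1rl1 and Il1rap were deeper than the rest, with medians of 12520 against 9020 UMIs for old Il1rl1 and 13209 against 8741 for young Il1rap.

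Over the 9 class profiles with at least 50 cells, the genes whose log2(CPM + 1) was most like that of Il1a and Il1b were Ctss, Cybb and Rac2 (Pearson r 0.999 for Ctss with either). Those most like Il1rn were Blvrb (0.957) and Cd80, and those most like Il1r1 were Cyp1b1 (0.984), Dkk3 and Cxcl12. Il1rl1 was most like Ereg (0.973), Slc7a2 and Ampd3, Il33 most like A730049H05Rik (0.974), Pde10a and Fzr1, and Il1rap most like Ifitm10 (0.993), Ppp3cc and Prkg1. The 9 profiles come from 2 libraries and share their depth, and 12216 genes were ranked over them. Only 1 of them is a macrophage profile. Outside it the highest level was 0.565 CPM for Il1a and 0.866 CPM for Il1b, both in old mesenchymal cells. The values of r for Il1a and Il1b therefore rest almost wholly on that profile, and any gene largely confined to macrophages would score high.

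Other ligands of the family were scarce in mesenchymal cells. Of 7 in the files 3 were measured in mesenchymal cells with at least 20 UMIs. Of these 1 had an old level at least 1.5-fold higher, 1 lower and 1 between, with a median log2 ratio of 0.41. Beside this list and the receptors below, 19.6% of all 15200 genes were as much higher and 12.4% as much lower. Il18, a pro-inflammatory ligand, had 105 and 273 UMIs (2.51-fold higher), and stood at 22.3 CPM in young mesothelial cells (77 UMIs) and 31.9 CPM in old macrophages (22 UMIs). Il18bp, which encodes its binding protein, had 116 and 160 (1.33-fold). The lower one was Il1f10, at 18 and 5 UMIs. Of 5 measured receptors 2, Il1rl2 and Sigirr, were higher and 1, Il1rapl1, lower (median 0.04). Il1rl2, the gene of the IL-36 receptor, lies between Il1r1 and Il1rl1 and stood at 18.4 and 32.4 CPM (1.76-fold higher), and Il1r2, the gene of the decoy receptor for IL-1, at 9.46 and 9.72 CPM (log2 0.04, -0.09 to 0.17). Sigirr, the gene of an inhibitory receptor, had 8 and 16 UMIs, with an interval that included 0 (log2 0.95, -0.36 to 2.38), and 82 UMIs (6.62 CPM) in old endothelial cells. Il1rapl1 had 28 and 6 UMIs, while Il18r1 had 2 and 1.

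Signal transduction below the receptors had 18 measured genes, 1 higher, 2 lower and 15 within 1.5-fold, with a median log2 ratio of 0.07. Over all genes 19.6% were as much higher and 12.4% as much lower. Irak3, whose product IRAK-M restrains signalling, was the higher one, with 919 and 4493 UMIs (8.70 and 41.0 CPM, 4.71-fold). Map3k8, a kinase gene, was 2.11-fold lower (1128 and 554 UMIs) and Irak2, a receptor-associated kinase gene, 1.71-fold lower. Ube2n, which encodes a ubiquitin-conjugating enzyme of the pathway, was 1.45-fold higher. The adaptor gene Myd88 had 1639 and 1643 UMIs (log2 -0.05, -0.15 to 0.05).

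Genes for processing and release of the ligands were mixed. Of 11 measured, 4 were higher, 2 lower and 5 between (median 0.13), where 19.6% of all genes were higher and 12.4% lower. Casp1, the protease gene for pro-IL-1β, had 45 and 311 UMIs (6.66-fold higher). In old macrophages it had 1 UMI (1.45 CPM), against 2.84 CPM in old mesenchymal and 4.04 CPM in old endothelial cells. Casp4, a protease gene of the non-canonical inflammasome, was 2.80-fold and Gsdmd, a pore protein gene, 1.62-fold higher. The inflammasome sensor gene Nlrp3 had 0 and 96 UMIs, at least 30.8-fold higher against the same floor (log2 4.95, and at least 4.62 with the counting error of the old UMIs), and stood at 81.2 CPM in old macrophages against 0.875 CPM in mesenchymal cells. It reached 20 UMIs through the old library alone. Pycard, the inflammasome adaptor gene, was 2.71-fold lower (814 and 312 UMIs) and Gsdme, another pore protein gene, 1.60-fold lower.

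Of 22 genes known as IL-1 responsive in fibroblasts, 21 were at least 1.5-fold higher in old mesenchymal cells and 0 lower. Among all genes 19.6% were as much higher and 12.4% as much lower. The median log2 ratio of the list was 4.06. The list was chosen with earlier results of these data in view, so its direction is not independent. Cxcl2, a neutrophil chemokine gene, had 18 and 11641 UMIs (623-fold). Csf3, the gene of granulocyte colony-stimulating factor, had 17 and 5242 (297-fold), and stood at 997 CPM in old endothelial cells against 47.8 CPM in old mesenchymal cells. Csf2 had 1 and 183 (176-fold, log2 7.46, 4.97 to 12.77), with 12.2 CPM in old endothelial against 1.67 CPM in old mesenchymal cells. Cxcl2, Csf3 and Csf2 reached 20 UMIs through the old library alone and could therefore only come out higher. Cxcl1 had 2698 and 345355 UMIs (123-fold). Mmp3, a matrix protease gene, was the one within 1.5-fold (74.4 and 81.3 CPM). Many of these genes also respond to other signals, and none of the values identifies the ligand. Summed markers of other cell types in mesenchymal cells differed between the libraries in both directions. Higher in old cells were those of macrophages (0.984 and 18.6 CPM), blood endothelial cells (27.6 and 50.6 CPM, none of 10 at 0) and pericytes (26.0 and 59.4 CPM). So were those of adipocytes (3.92 and 14.1 CPM), B cells (0.0852 and 2.17 CPM), T cells, mast cells and striated muscle. Lower were those of lymphatic endothelial cells (20.03 and 9.20 CPM), mesothelial cells (29.9 and 23.1 CPM) and neutrophils (4.02 and 3.06 CPM). Markers of Schwann cells (8.18 and 7.91 CPM) and group 2 innate lymphoid cells (0.729 and 0.474 CPM) were lower as well. The part of other cell types in the values of the gene lists was not tested.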

How the data were processed

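The files deposited by the authors hold raw UMI counts for every gene in every barcode. Cell Ranger 3.0.1 made them, per the file headers, on the mm10 build (also called GRCm38), per the submitters' processing notes. The sources used here name no annotation release and no barcode filter. Totals were 130398999 UMIs in 13104 young barcodes and 147166475 UMIs in 14636 old barcodes.

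Cells needed at least 500 genes and no more than 10% mitochondrial UMIs. Scrublet (scanpy 1.11.5) called 0 doublets by its automatic threshold in either library, so the highest scores were removed instead, 0.8% per 1000 cells (1302 young and 1504 old cells). Remaining doublets were not counted. Cells were gated on at least 4 markers of a class; cells in several non-mesenchymal gates (15, all old) were set aside, and 586 young and 352 old cells passed no gate. UMIs were summed per library and class, scaled to CPM, and compared as log2(old/young) with exact Poisson 95% intervals (scipy 1.17.1); shares carry exact Clopper-Pearson intervals. A count of 0 was set to 3 for ratios and limits. Ratios were adjusted for nothing else, and no test was made because each age has 1 library. The code for ratios and their intervals was tested on simulated data.

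The members, gates and lists were chosen with earlier results of these data known. Named genes were the 7 members, up to 4 genes per list of 100 UMIs or more, taken by the size of their log2 ratio, the 3 genes most like each member (1 of those for Il1rn is not reported here), and Il1r2, Il18, Il18r1, Sigirr, Myd88, Irak3, Casp1, Nlrp3 and Ptprc; Il1f10, Il1rapl1, Gsdme, Mmp3, Csf1r and the genes leading holding cells were named after their values were seen. Alternatives were the cell filter, doublet removal, the gate size, the scaling, a mean over cells, leaving out cycling-gated cells or cells rich in collagen, the thinning depth and the list threshold. Cells without macrophage markers, and the removal of the cell richest in Il1a, were added after seeing the data. Young classes under 50 cells were left out of comparisons.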

Additional observations from a re-analysis of the deposited data

How the results depend on the processing

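No paired analysis was possible because each age had 1 library. None of the 7 mesenchymal log2 ratios of old to young changed sign under the alternatives run; 46 of 56 recomputed ratios moved by less than their counting interval. The log2 ratio ranged from 2.98 to 3.15 for Il33, from 1.71 to 2.59 for Il1rl1, from 0.62 to 0.80 for Il1r1, from 0.24 to 0.42 for Il1rn, from -0.58 to -0.35 for Il1rap, from 4.01 to 4.93 for Il1a and from 4.42 to 5.09 for Il1b. With median-of-ratios size factors the values were 0.24 for Il1rn, 0.62 for Il1r1, -0.58 for Il1rap, 1.71 for Il1rl1 and 2.98 for Il33, the shift that this scaling gives to all genes. With the mean of each cell's CPM, Il1r1 was at 0.80 and Il1rap at -0.35. With a gate of 5 markers Il1rl1 was at 1.99. Without cycling-gated and pericyte-gated cells Il1rl1 was at 2.59 and Il1b at 4.42, the latter a bound that falls with the number of cells. Old macrophage levels of Il1a, Il1b and Il1rn were 92.5, 729 and 367 CPM without doublet removal (129 cells) and 72.1, 574 and 290 CPM with a gate of 3 markers. With collagen-rich cells left out Il1b was at 1164 and Il1rn at 570 CPM. For these level changes the cause was not tested. At 2-fold, 0 other receptors were higher in place of 2, and 1 gene of signalling and 1 of processing was lower in place of 2 each. There were 3 processing genes higher in place of 4, and 4 of the 7 genes in place of 5, Il1r1 being the one lost. Il1a and Il1b, which could only come out higher, are among those 4. The share of all genes was taken at 1.5-fold only, so the counts at 2-fold have no background to be read against. Of 42 thinned shares 31 moved with a thinning depth of 1000 or 4000 UMIs, as the construction of thinning gives. For Schwann and mesothelial cells without collagen-rich ones no value could be given, since 10 of 71 and 5 of 57 old cells were left. Depth limits Il1a and Il1b in young cells, where 3 and 0 UMIs were counted, and every class under 100 cells.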

Other observations

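Values outside the comparisons are given here without explanation. Among 15 old cells that passed several non-mesenchymal gates, Il1b had 49 UMIs (331 CPM) and Il1rn 35 UMIs (236 CPM). In the 586 young cells that passed no gate, which had a median of 3808 UMIs, Il1rl1 stood at 28.2 CPM (22.1 to 35.5), against 12.2 CPM in young mesenchymal cells. In the 352 old cells without a gate it stood at 8.76 CPM. Among the genes ranked for holding cells, Igkc, an immunoglobulin gene, was richest in old mesenchymal cells with at least 2 Il1r1 UMIs. It stood there at 39.5 CPM, against 7.86 CPM in cells with 0 (5.02-fold). Csf1r, the macrophage growth factor receptor gene, had 2652 UMIs in old mesenchymal cells, 5.89% of its macrophage level, where the 9 other macrophage markers lay at 0.113% or less.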
